A study of Mus musculus with 6 samples.

Results

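Ebp, Sc5d and Dhcr7 encode the last enzymes of cholesterol synthesis, and these 3 genes were taken by symbol from the 31384 Ensembl genes of a raw count table, all 3 passing the filter on low counts that left 16121 genes tested. The table holds 6 RNA libraries of a mouse spermatogonial stem cell line, a culture of the germline stem cells of the testis, grown on feeders of mitomycin C treated mouse embryonic fibroblasts. The PTC group (2 libraries) had 10 ng/mL GDNF, a growth factor on which their self-renewal depends, the NTC group (2 libraries) had no GDNF, and in the LOVA group (2 libraries) 5 µM lovastatin took the place of GDNF. All 3 groups had EGF and FGF2, each at 10 ng/mL, and LIF at 5000 U, and cells were collected on day 18. Lovastatin is a statin, a drug that blocks the rate-limiting enzyme of the mevalonate pathway. The cells form 1 line, the feeders stayed in the dish, and it is not stated whether a group's libraries are separate cultures. Each p therefore measures only the spread between these libraries, which may be technical.

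Cells build cholesterol from acetyl-CoA by way of mevalonate, farnesyl diphosphate, squalene and lanosterol, and then trim and reshape the sterol ring in the endoplasmic reticulum. Ebp, the emopamil binding protein, is the sterol isomerase that shifts a double bond within the ring, Sc5d is the desaturase that makes 7-dehydrocholesterol from lathosterol, and Dhcr7 is the reductase that turns 7-dehydrocholesterol into cholesterol. When sterol in the membrane falls, the transcription factor SREBP2 is released and raises the genes of the whole pathway, and germ cells as well as fibroblasts run it.

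Total counts ranged from 12454671 to 22668087 per library. Libraries carry the column letters A and B, which match no replicate number of the labels, and a pair of values for a group gives library A first. The 19 germ cell markers, all detected in every group, took 0.561% and 0.566% of counts in PTC, then 0.331% and 0.213% in NTC, then 0.386% and 0.211% in LOVA. The 21 fibroblast markers took 0.160% and 0.658% in PTC, then 1.78% and 2.95% in NTC, then 1.60% and 3.00% in LOVA. The 10 macrophage markers took 0.0286% and 0.0243% in PTC, 0.192% and 0.239% in NTC, then 0.0423% and 0.0504% in LOVA. Sertoli, Leydig and endothelial markers took at most 0.00363%, 0.000774% and 0.00202% of counts in any library, and the Leydig marker Hsd3b6 was at 0 in all of them. In bulk RNA of this kind, fewer cells of a type and less RNA per cell cannot be told apart.

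All 3 genes are protein-coding and overlap no other annotated gene (GENCODE M21, GRCm38). Ebp (ENSMUSG00000031168) lies on the minus strand at chrX:8185329-8193512, Sc5d (ENSMUSG00000032018) on the minus strand at chr9:42251595-42264256, and Dhcr7 (ENSMUSG00000058454) on the plus strand at chr7:143823145-143848410. No annotated transcript of another gene aligned to Ebp or Dhcr7 over 300 bases or more. The closest for Sc5d was the pseudogene Gm31520, with 88.9% identity over 1171 bases, which is not among the genes analysed here. RefSeq (GRCm38.p6) gives Ebp and Sc5d 1 start each and Dhcr7 3 starts, and counts per gene do not separate the Dhcr7 starts. The bases before these starts are shown since the 3 genes of neighbouring steps differed in their profiles. They are written 5′ to 3′ on the gene's strand, with capitals for the letters CCAAT (the CCAAT box), GGGCGG (the GC box) and CACGTG (an E-box) on either strand; overlapping matches would share capitals. The windows are chrX:8193513-8193762 for Ebp, chr9:42264301-42264550 for Sc5d, chr7:143822917-143823166 for the Dhcr7 start farthest upstream, and chr7:143829964-143830076 for the part before annotated UTR of the start farthest downstream.
Ebp: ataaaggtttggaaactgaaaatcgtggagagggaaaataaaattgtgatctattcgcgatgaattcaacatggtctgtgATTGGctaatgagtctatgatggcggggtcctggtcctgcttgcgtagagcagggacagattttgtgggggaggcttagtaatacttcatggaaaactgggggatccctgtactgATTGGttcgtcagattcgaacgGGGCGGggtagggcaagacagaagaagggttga
Sc5d: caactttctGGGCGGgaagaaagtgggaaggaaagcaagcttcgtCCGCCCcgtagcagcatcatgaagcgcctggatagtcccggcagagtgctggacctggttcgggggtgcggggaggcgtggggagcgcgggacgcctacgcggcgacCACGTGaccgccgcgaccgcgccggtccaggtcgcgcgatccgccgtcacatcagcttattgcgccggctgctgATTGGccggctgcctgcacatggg
Dhcr7, upstream start: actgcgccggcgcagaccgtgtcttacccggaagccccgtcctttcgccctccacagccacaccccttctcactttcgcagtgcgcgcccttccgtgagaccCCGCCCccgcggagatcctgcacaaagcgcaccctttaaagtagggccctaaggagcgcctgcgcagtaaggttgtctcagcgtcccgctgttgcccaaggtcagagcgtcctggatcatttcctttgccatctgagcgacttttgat
Dhcr7, downstream start: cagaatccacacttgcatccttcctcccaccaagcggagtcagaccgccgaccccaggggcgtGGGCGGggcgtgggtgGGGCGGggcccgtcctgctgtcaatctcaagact
In the 250 bases before its start Ebp had the CCAAT letters at 170 and 55 bases and GGGCGG at 33 bases before the start. Sc5d had CCAAT at 24, GGGCGG at 241 and 205, and CACGTG at 98 bases. The upstream Dhcr7 start had 1 GC box at 148 bases. The downstream Dhcr7 start had GC boxes at 187, 171 and 20 bases and CCAAT letters at 85 and 49 bases, of which those from 85 on lie in annotated UTR and are not shown. The middle Dhcr7 start had only CACGTG, at 164 bases. Of all 32851 RefSeq windows of 250 bases, 33.8% held CCAAT, 32.7% GGGCGG and 6.02% CACGTG on either strand. The 9 letters TCACNCCAC, a form of the sterol regulatory element, stood in 1.05% of all windows and in none of the 5 windows of the 3 genes, which says only that these letters are not there.

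Ebp was the least abundant of the 3 genes and had the widest range between libraries as a ratio, the highest CPM being 8.77 times the lowest, beside 4.57 times for Sc5d and 2.63 times for Dhcr7. Its level in CPM (read counts adjusted for library size with TMM factors) was 2.38 and 4.09 in PTC, then 14.5 and 18.3 in NTC, then 12.2 and 20.9 in LOVA. The counts behind these values were 38 and 96, 182 and 284, and 172 and 243. Both PTC libraries lay below every NTC and LOVA library, while the NTC values lay inside the range of the LOVA values.

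Sc5d stood at 31.1 and 33.3 CPM in PTC, then 44.1 and 74.7 in NTC, then 87.0 and 142 in LOVA. The 3 groups did not overlap and followed the order PTC, NTC, LOVA. Of all genes tested, 39.0% lay higher in NTC than in PTC without overlap and 38.4% higher in LOVA than in PTC. Another 12.7% figure holds for LOVA above NTC, and how many genes follow the whole order was not counted. The counts ranged from 496 in PTC A to 1652 in LOVA B.

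Dhcr7 stood at 162 and 160 CPM in PTC, then 86.4 and 87.8 in NTC, then 227 and 132 in LOVA. The PTC libraries and the NTC libraries each lay close together, and the LOVA libraries lay on either side of the PTC values and above the NTC values. Its counts ranged from 1085 in NTC A to 3763 in PTC B. The plot of CPM by library shows these 3 profiles.

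**Figure D1:**
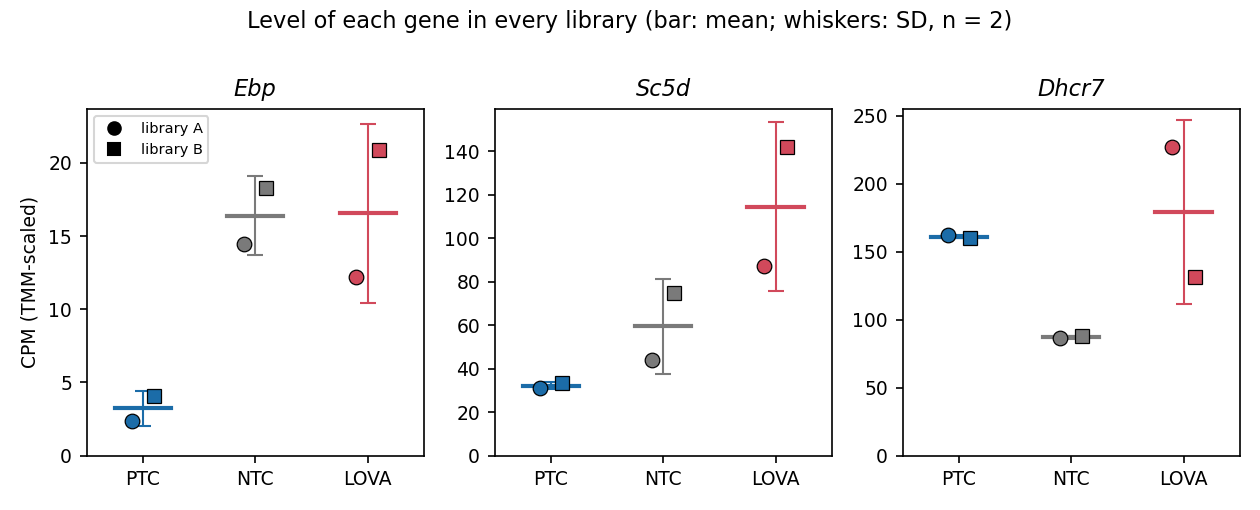
Level of Ebp, Sc5d and Dhcr7 in every library (vertical axes, CPM; each axis starts at 0), with the mean as a bar and the SD of 2 libraries as whiskers. Ebp is low in PTC only, Sc5d goes up from PTC to NTC to LOVA, and Dhcr7 is low in NTC.

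Levels of different genes were compared as CPM per kilobase of annotated exon. In PTC the order was Dhcr7 (27.7 ± 0.228, SD, n = 2), Sc5d (6.62 ± 0.328) and Ebp (1.40 ± 0.522). In NTC, Dhcr7 (15.0 ± 0.175) and Sc5d (12.2 ± 4.45) did not differ beyond their spread, and Ebp stood at 7.10 ± 1.17, below both in each library. In LOVA, Dhcr7 (30.9 ± 11.6) and Sc5d (23.5 ± 7.98) again overlapped, with Dhcr7 higher in library A and Sc5d higher in library B, and Ebp was lowest at 7.17 ± 2.64. Among 20 cholesterol synthesis genes, Ebp had rank 20 (the lowest level per length) in PTC A, PTC B and LOVA A, rank 19 in LOVA B and rank 18 in NTC A and B. Dhcr7 held ranks 10 to 14 and Sc5d ranks 13 to 18. The plot of levels per length sets the 3 genes among the other 17.

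**Figure D2:**
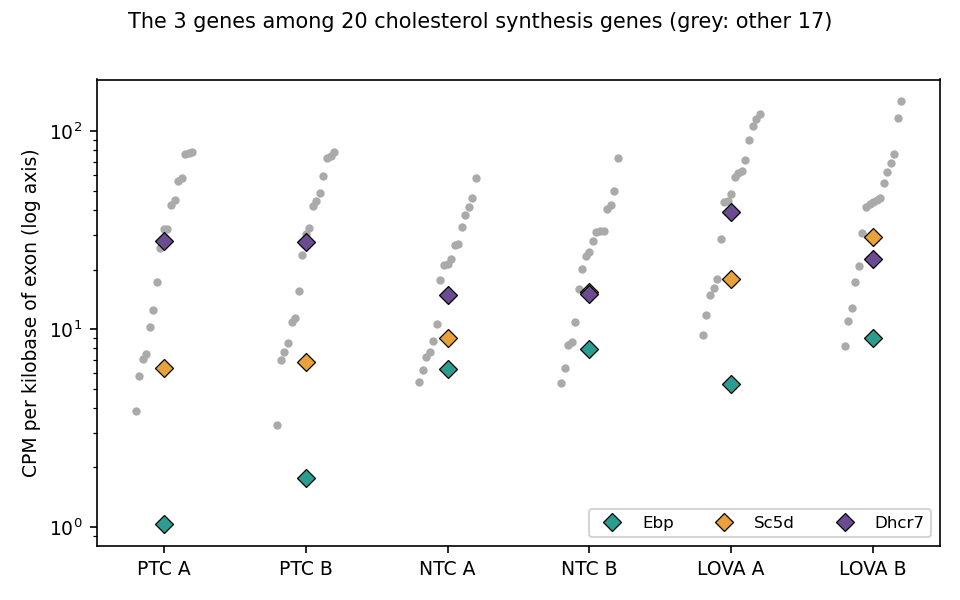
Level per kilobase of exon (vertical log axis) of 20 cholesterol synthesis genes in each library, with Ebp, Sc5d and Dhcr7 as coloured diamonds and the other 17 genes as grey points spread sideways by rank. Ebp lies at or near the bottom in every library, and Sc5d lies close to Dhcr7 in NTC B and above it in LOVA B.

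NTC minus PTC asks what changed when GDNF was left out. Ebp rose and Dhcr7 fell, so the isomerase and the final reductase moved in opposite directions. Ebp rose from 3.23 ± 1.21 to 16.4 ± 2.69 CPM (SD, n = 2 per group), 5.02-fold (log2 fold change 2.33, SE 0.41, 95% interval 1.36 to 3.29, edgeR adjusted p = 0.0122). Dhcr7 fell 1.85-fold, with 161 ± 1.32 CPM in PTC and 87.1 ± 1.02 in NTC (SD, n = 2; log2 -0.89, SE 0.26, 95% interval -1.50 to -0.28, edgeR adjusted p = 0.0382). Sc5d stood at 32.2 ± 1.60 and 59.4 ± 21.7 CPM and did not pass the test (log2 0.88, SE 0.32, 95% interval 0.12 to 1.65, edgeR adjusted p = 0.0720). Of all genes tested 34.5% were called here, 21.5% higher and 12.9% lower, and 39.0% lay higher and 38.5% lower in NTC without overlap, so calls and groups that do not overlap are common in this comparison.

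The Dhcr7 change depended on the scaling, while its log2 value barely moved without single libraries. The Dhcr7 call was lost without any single PTC or NTC library, where fewer genes of the whole table were called too. Without PTC A, PTC B, NTC A or NTC B its adjusted p was 0.135, 0.112, 0.134 and 0.176, at log2 values between -0.90 and -0.87. With libraries scaled to the germ cell markers, a scaling that shifted the all-gene median by 0.99, Dhcr7 turned to 0.11 (adjusted p = 0.797), while Ebp was at 3.36 (adjusted p = 0.0259) and Sc5d at 1.95 (adjusted p = 0.0519). Ebp lost its call without NTC B (log2 2.15, adjusted p = 0.0810), where 1 gene of the whole table was still called. Sc5d passed the test without NTC A (1.22, adjusted p = 0.0495) and, at 0.88, without LOVA A or LOVA B (adjusted p = 0.0393 and 0.0365), and was at 0.46 without NTC B (adjusted p = 0.410). It also passed with the column letter as a block (0.83, adjusted p = 0.00506), with no filter beyond 1 count (0.86, adjusted p = 0.00374) and with only the 2 groups compared (0.89, adjusted p = 0.0378).

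In the pathway as a whole, NTC minus PTC had 6 lower, 2 higher and 12 uncalled among 20 cholesterol synthesis genes. Their median log2 fold change was -0.18, beside -0.02 for all genes. With libraries scaled to germ cell markers it was 0.84, below the all-gene median of 0.97. In that scaling 3 of the 20 were called higher and 0 lower, beside 4737 higher and 40 lower of the 16121 genes tested. Ebp had the highest change of the 20, Sc5d rank 3 from the top and Dhcr7 rank 19. The other gene called higher was Pmvk, the phosphomevalonate kinase (0.93, SE 0.30, adjusted p = 0.0495, and not called without any 1 of the PTC or NTC libraries). Of the 8 genes from mevalonate to farnesyl diphosphate, 1 rose and 3 fell, and of the 8 from squalene to demethylation 0 rose and 1 fell, beside 21.5% higher and 12.9% lower among all genes. With germ cell scaling these lists had 2 and 0 genes called higher and 0 lower in either. Without PTC A, PTC B, NTC A and NTC B the median of the 20 was -0.25, -0.18, -0.07 and -0.38. Fewer of the 20 were called in each of these fits, as were fewer of all genes.

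LOVA minus NTC asks what changed when lovastatin was added without GDNF. Dhcr7 and Sc5d were about 2-fold higher in LOVA, without passing the test across all genes, and Ebp had nearly the same mean in both groups. Dhcr7 went from 87.1 ± 1.02 to 180 ± 67.6 CPM (SD, n = 2; log2 1.04, SE 0.26, 95% interval 0.43 to 1.66, unadjusted p = 0.00517 and adjusted p = 0.603 by edgeR). Sc5d went from 59.4 ± 21.7 to 114 ± 38.8 CPM (log2 0.94, SE 0.32, 95% interval 0.18 to 1.71, unadjusted p = 0.0224 and adjusted p = 1 by edgeR). Ebp was at 16.4 ± 2.69 and 16.6 ± 6.11 CPM (log2 0.01, SE 0.38, 95% interval -0.89 to 0.91). An interval this wide does not show that Ebp was the same in both groups. Over the 4 pairs of a LOVA and an NTC library, the ratio ran from 1.50 to 2.63 for Dhcr7, from 1.16 to 3.22 for Sc5d and from 0.669 to 1.44 for Ebp.

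No gene of the table passed the test in this comparison (0% called). With edgeR, 561 genes had an unadjusted p under 0.05, and DESeq2 called 120 genes and limma-voom 10. Groups lay apart without overlap for 12.7% of all genes with LOVA higher, and Dhcr7 and Sc5d were among these. All 20 cholesterol synthesis genes had a positive fold change, with a median of 1.02 beside 0.01 for all genes, and 17 of them had an unadjusted p under 0.05. DESeq2 called 13 of the 20 higher and limma-voom 1, neither of them calling Ebp, Sc5d or Dhcr7. With no filter beyond 1 count edgeR called 191 genes and 16 of the 20, among them Dhcr7 (1.03, adjusted p = 0.00355) and Sc5d (0.92, adjusted p = 0.0366). With the column letter as a block, 90 genes and 13 of the 20 were called, with adjusted p = 0.0715 for both Dhcr7 and Sc5d; the letters are not shown to mark pairs. Dhcr7 had rank 9 from the top, Sc5d rank 13 and Ebp rank 20, the lowest change of the list. The highest was Lss, the lanosterol synthase, at 1.36 (SE 0.16, adjusted p = 0.0764), followed by Idi1, the isomerase of isopentenyl diphosphate, at 1.35 (SE 0.16). Dhcr7 and Sc5d stayed positive with libraries scaled to germ cell markers, at 0.87 and 0.89, and Ebp was at 0.00.

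The size of these differences moved with single LOVA libraries. Dhcr7 was at 0.59 without LOVA A and at 1.39 without LOVA B (adjusted p = 0.606 and 0.0618). Sc5d was at 1.25 and 0.55 without the same libraries, and at 0.58 and 1.37 without NTC A and NTC B. Ebp was at 0.35 without LOVA A, -0.42 without LOVA B, -0.18 without NTC A and 0.19 without NTC B. LOVA A, the library with more Dhcr7, had fibroblast and germ cell shares of 1.60% and 0.386%, and LOVA B, with more Ebp and Sc5d, had 3.00% and 0.211%.

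LOVA minus PTC sets lovastatin without GDNF beside GDNF. Ebp and Sc5d rose, and Dhcr7 differed by less than its spread. Ebp was at 16.6 ± 6.11 CPM in LOVA and 3.23 ± 1.21 in PTC, 5.06-fold higher (log2 2.34, SE 0.41, 95% interval 1.37 to 3.30, edgeR adjusted p = 0.0171). Sc5d was at 114 ± 38.8 and 32.2 ± 1.60 CPM, 3.55-fold higher (log2 1.83, SE 0.33, 95% interval 1.05 to 2.61, edgeR adjusted p = 0.0174). Dhcr7 was at 180 ± 67.6 and 161 ± 1.32 CPM (log2 0.16, SE 0.26, 95% interval -0.45 to 0.76, edgeR adjusted p = 0.655), and the groups overlapped. It was at -0.30 without LOVA A and 0.50 without LOVA B. With libraries scaled to germ cell markers it was at 0.98 (edgeR adjusted p = 0.0596), where the all-gene median was 0.92. Of all genes 30.6% were called in this comparison, 19.8% higher and 10.8% lower, and 38.4% lay higher in LOVA without overlap. Ebp lost its call without PTC A (2.01, adjusted p = 0.0570), and Sc5d without PTC A (1.77, adjusted p = 0.0619) and without LOVA B (1.43, adjusted p = 0.0522). Of the 20 cholesterol synthesis genes 13 rose and 0 fell, with a median of 0.84 beside 0.00 for all genes. Without PTC A and PTC B the median of the 20 was 0.80 and 0.86, and fewer of them and of all genes were called. The plot of fold changes shows the 3 comparisons, which share groups of libraries.

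**Figure D3:**
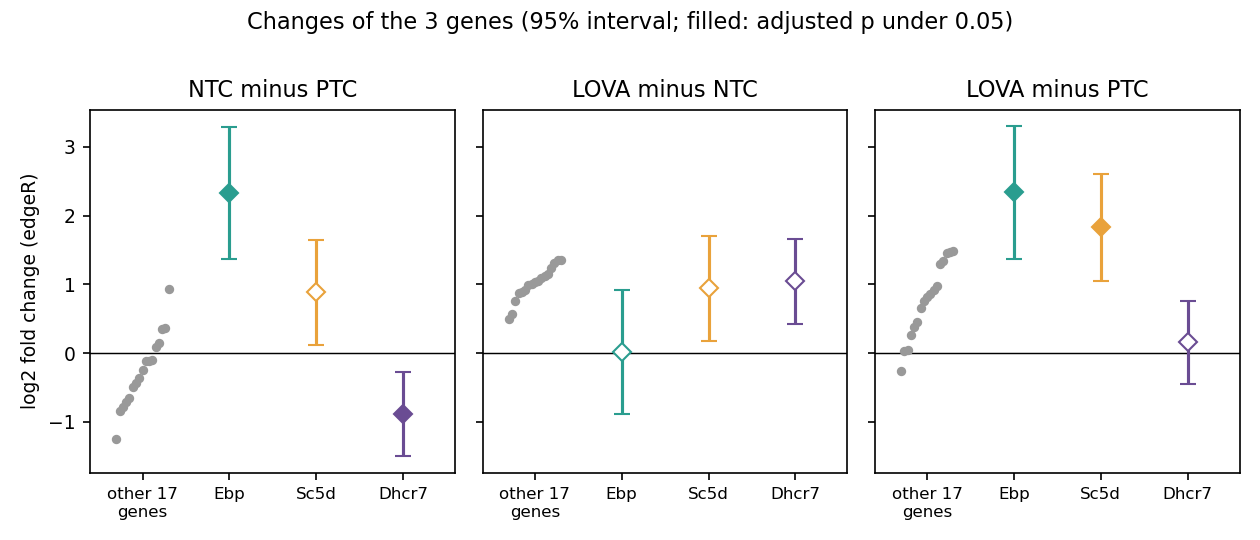
Log2 fold changes (vertical axis) in the 3 comparisons for Ebp, Sc5d and Dhcr7, with 95% intervals and filled symbols for an adjusted p under 0.05; grey points are the other 17 cholesterol synthesis genes in order of their change. Ebp is the highest of the list in NTC minus PTC and LOVA minus PTC and the lowest in LOVA minus NTC, and scaling to germ cell markers turns Dhcr7 in NTC minus PTC from -0.89 to 0.11.

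Ratios of 2 genes within a library do not depend on how libraries are scaled. The ratio of Dhcr7 to Ebp, in counts per kilobase, was 27.0 and 15.6 in PTC, then 2.37 and 1.91 in NTC, then 7.38 and 2.51 in LOVA. It was thus highest in both PTC libraries and lowest in both NTC libraries. The ratio of Dhcr7 to Sc5d was 4.36 and 4.02 in PTC, 1.64 and 0.983 in NTC, then 2.19 and 0.776 in LOVA, so that NTC and LOVA overlapped and lay below PTC. The ratio of Sc5d to Ebp was 6.20 and 3.87 in PTC, 1.45 and 1.94 in NTC, then 3.38 and 3.23 in LOVA, with no overlap between any groups. With 2 libraries against 2, the exact two-sided permutation test cannot go below p = 0.333, the value for each pair of groups without overlap, so this test cannot call these ratios with so few libraries.

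**Figure D4:**
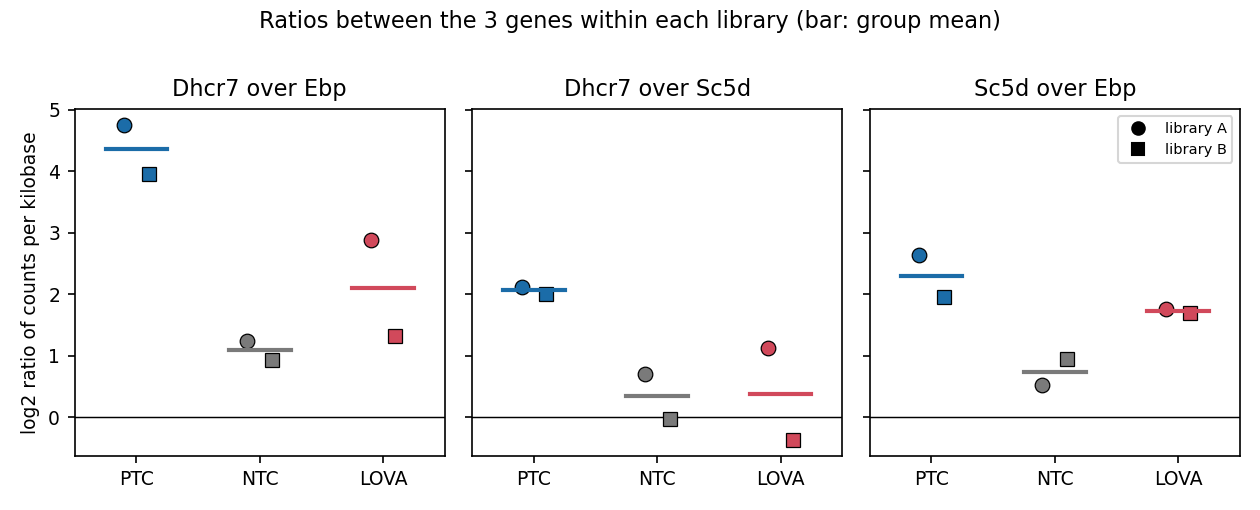
Log2 ratios of counts per kilobase between the 3 genes within each library (vertical axis), with bars at the group means. Sc5d over Ebp lies apart in the 3 groups, highest in PTC and lowest in NTC, while Dhcr7 over Sc5d overlaps between NTC and LOVA.

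The share of the summed counts of the 20 cholesterol synthesis genes tells the same members apart. Ebp took 0.0866% and 0.153% in PTC, 0.784% and 0.863% in NTC, then 0.291% and 0.535% in LOVA, so its share was lower in LOVA than in NTC although its CPM was not. Sc5d took 1.13% and 1.25%, then 2.39% and 3.53%, then 2.07% and 3.64%, and Dhcr7 took 5.90% and 5.99%, then 4.67% and 4.14%, then 5.40% and 3.38% in the same order. The NTC and LOVA shares of Sc5d and of Dhcr7 overlapped.

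The fibroblast share of counts moved with Ebp. The order of the 6 libraries by Ebp, from PTC A and PTC B through LOVA A, NTC A and NTC B to LOVA B, was also their order by fibroblast share. Other genes with this order were not counted, and 39.0% of all genes tested lay higher in NTC than in PTC without overlap. The match is therefore not shown to be particular to Ebp. Per 1000 counts of the 21 fibroblast markers, Ebp had 1.58 and 0.644 counts in PTC, then 0.821 and 0.580 in NTC, then 0.787 and 0.649 in LOVA. The highest of these was 2.73 times the lowest, or 1.41 times without PTC A, where Ebp in CPM spanned 8.77 times and 5.11 times. Per 1000 germ cell marker counts Ebp spanned 20.5 times, or 12.4 times without PTC A. Per 1000 macrophage marker counts it spanned 5.39 times, with or without PTC A. Of the 21 fibroblast markers 14 rose and 0 fell in NTC minus PTC and 13 rose and 0 fell in LOVA minus PTC, with medians of 2.94 and 2.77, and 0 were called in LOVA minus NTC (median -0.06). How much of the Ebp signal came from feeder cells was not tested. These ratios to marker counts, and the spans without PTC A, were chosen after the values were seen.

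The germ cell share and Dhcr7 in CPM were both lower in NTC than in PTC, where 38.5% of all genes lay lower without overlap. Within NTC the share was 0.331% and 0.213%, while Dhcr7 stood at 86.4 and 87.8 CPM. Per 1000 counts of the 19 germ cell markers, Dhcr7 had 30.8 and 29.4 counts in PTC, then 26.3 and 38.6 in NTC, then 60.5 and 58.4 in LOVA. On this measure PTC and NTC overlapped, and both LOVA libraries stood above all others, with a mean 1.83 times that of NTC and 1.98 times that of PTC. The LOVA libraries, which were 227 and 132 in CPM, lay close together on it (59.5 ± 1.48, SD, n = 2). Over all 6 libraries Dhcr7 spanned 2.30 times on this measure and 2.63 times in CPM. It spanned 38.7 times per 1000 fibroblast marker counts, or 9.06 times without PTC A, and 19.9 times per 1000 macrophage marker counts. Over all 6 libraries Sc5d followed neither marker list. Per 1000 fibroblast marker counts it had 20.7 and 5.25 in PTC, 2.50 and 2.37 in NTC, then 5.59 and 4.41 in LOVA. Per 1000 germ cell marker counts it had 5.90 and 6.11, then 13.4 and 32.9, then 23.2 and 62.9. The fibroblast measure spanned 8.72 times, or 2.36 times without PTC A, where Sc5d in CPM spanned 4.57 times and 4.26 times. The germ cell measure spanned 10.7 times, or 10.3 times without PTC A. On the fibroblast measure the LOVA mean of Sc5d was 2.05 times the NTC mean, without overlap. The plot of levels beside marker shares shows both lists.

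**Figure D5:**
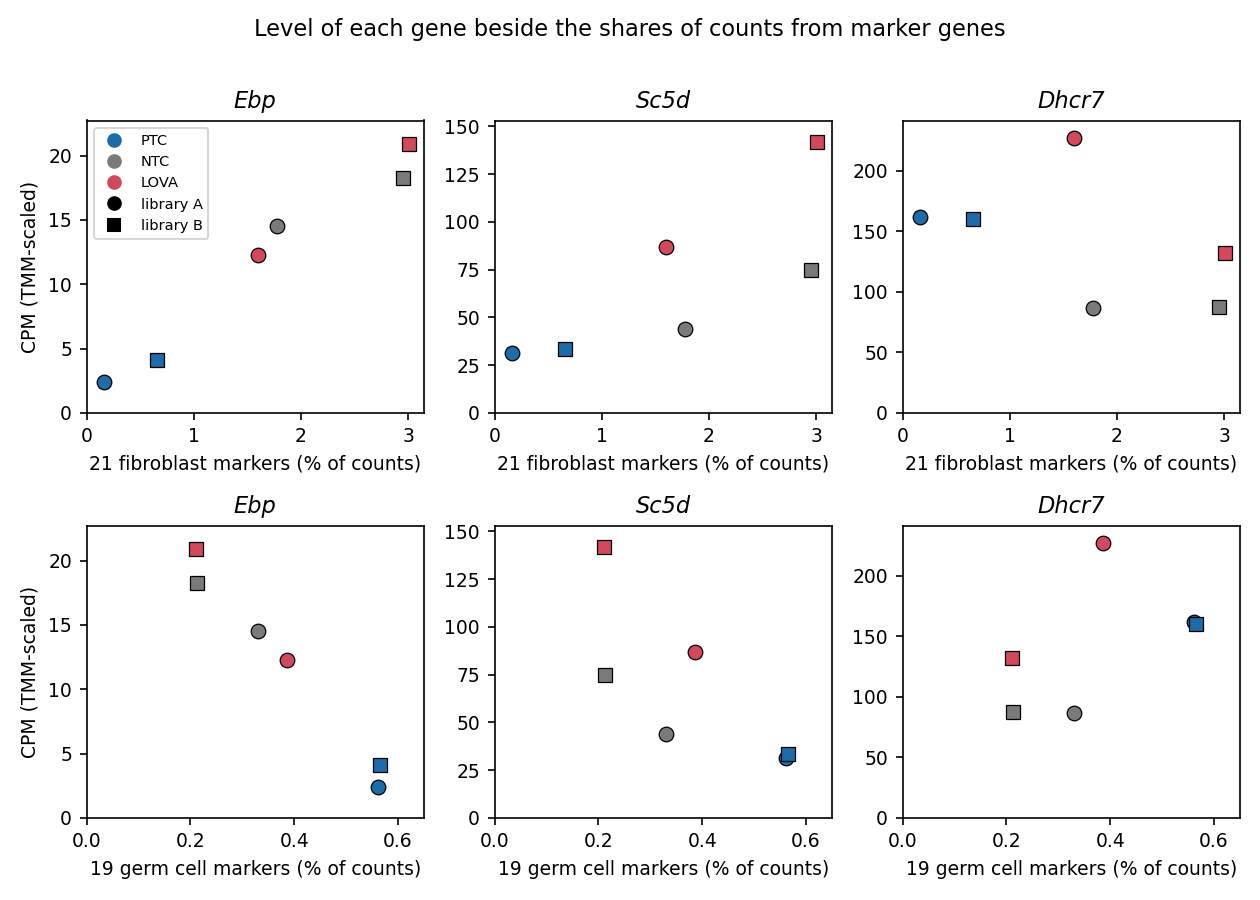
Level of each gene (vertical axes, CPM) beside the percent of counts from 21 fibroblast markers (upper row) and 19 germ cell markers (lower row), 1 point per library. Ebp goes up with the fibroblast share in the same library order, and Dhcr7 in LOVA A and B lies above the NTC library of nearest germ cell share.

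The genes whose profile over the 6 libraries was most like each member differed between the 3. Likeness was the root mean square difference of log2 CPM, each gene centred on its own mean, among protein-coding genes with a mean of at least 10 CPM. For all 3 members these genes were picked by their profile over the same 6 libraries. Their like changes given below therefore follow from the choice and are no separate result. Nearest to Ebp were Shisa5 (0.04), an endoplasmic reticulum protein, the tetraspanin Cd81 (0.06), Maged2 (0.08), on the X chromosome like Ebp, and the thyroid hormone receptor Thra (0.08), beside a median of 1.19 over the candidates. Cd81 had 54.7 and 94.0 CPM in PTC, then 329 and 451 in NTC, then 302 and 471 in LOVA, the library order of Ebp. All 4 of these genes rose in NTC minus PTC, by 2.19 to 2.39 on the log2 scale, as their choice by likeness entails. Like Ebp all 4 lost the call without NTC B, where nearly all calls of the whole table were lost.

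Nearest to Sc5d were the fatty acid desaturase Fads1 (0.17), the insulin receptor Insr (0.20), the stearoyl-CoA desaturase Scd2 (0.21) and the retinol dehydrogenase Rdh11 (0.22), with a median of 0.89 over the candidates. Fads1 had 38.0 and 39.8 CPM in PTC, 69.6 and 104 in NTC, then 104 and 157 in LOVA, so that its groups ran in the order of Sc5d. In LOVA minus PTC all 4 rose, by 1.46 to 1.75 on the log2 scale, as their choice by likeness entails. Without PTC A all 4 lost the call, where most calls of the whole table were lost.

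Nearest to Dhcr7 were Fdps (0.12), the farnesyl diphosphate synthase, Fdft1 (0.14), the squalene synthase, Pdp2 (0.19), a phosphatase of pyruvate dehydrogenase, and Acly (0.20), the ATP citrate lyase that supplies acetyl-CoA, with a median of 0.55 over the candidates. Fdps had 325 and 316 CPM in PTC, 195 and 178 in NTC, then 450 and 323 in LOVA, with LOVA A high as in Dhcr7. All 4 fell in NTC minus PTC, by 0.78 to 0.91 on the log2 scale, and stood between 0.07 and 0.20, not called, with libraries scaled to germ cell markers. Like Dhcr7 itself, all 4 lost the call without any 1 of the PTC or NTC libraries, where fewer genes of the whole table were called too. The distance of Dhcr7 to Ebp was 1.44 and to Sc5d 0.94, and that between Ebp and Sc5d was 0.66.

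Sc5d draws electrons from cytochrome b5 and Dhcr7 from the reductase Por, and their donors were listed with them. Of 6 electron donor genes, 3 rose and 0 fell in NTC minus PTC, with a median of 0.71, beside 21.5% of all genes called higher and 12.9% lower, and 0 were called in LOVA minus NTC (median -0.06; 0 with an unadjusted p under 0.05). Cyb5a, a cytochrome b5, had 14.9 and 21.1 CPM in PTC, 119 and 131 in NTC, then 90.9 and 125 in LOVA (NTC minus PTC 2.79, SE 0.26, adjusted p = 0.00795). Cyb5r3, its reductase and the most abundant of the 6 per length, rose by 1.22 (SE 0.26, adjusted p = 0.0170), beside the higher fibroblast share given above. Por had 96.8 and 92.5 CPM in PTC, 76.2 and 72.8 in NTC, then 79.0 and 76.6 in LOVA, and was not called (-0.35 in NTC minus PTC, or 0.64 with germ cell scaling). In LOVA minus NTC, Cyb5b was highest of the 6 at 0.22 and Cyb5a lowest at -0.21.

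Of 9 listed relatives of the 3 enzymes by sequence or fold, 7 were tested, of which 1 rose and 2 fell in NTC minus PTC, where 21.5% of all genes were called higher and 12.9% lower. With libraries scaled to germ cell markers 3 of the 7 were called higher and 0 lower (median 1.40). In that scaling 4737 of all 16121 genes were called higher and 40 lower, with a median of 0.97. Ebpl, the homologue of Ebp, had between 21.2 and 34.8 CPM in all libraries and was not called in any comparison with TMM scaling. With germ cell scaling it was called higher in NTC minus PTC (1.40, adjusted p = 0.0286) and in LOVA minus PTC (1.12, adjusted p = 0.0481). The all-gene medians in these 2 comparisons were then 0.97 and 0.92. Lbr and Tmem97 were the most abundant relatives per length. Lbr, a sterol reductase of the nuclear envelope related to Dhcr7, fell in NTC minus PTC (-1.36, SE 0.25, adjusted p = 0.0127; -0.39 and not called with germ cell scaling). Tmem97, a protein of the Ebp fold, also fell (-0.96, SE 0.23, adjusted p = 0.0228; 0.02 with germ cell scaling). Ch25h, a hydroxylase of the same superfamily as Sc5d, rose (3.37, SE 0.69, adjusted p = 0.0161), from 0.877 and 2.68 CPM in PTC to 13.8 and 24.2 in NTC. In LOVA minus NTC, Msmo1, the methylsterol oxidase, was highest at 1.10 and Ch25h lowest at -0.31, and 0 of the 7 were called.

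Of 12 sterol sensing and uptake genes tested, 2 rose and 2 fell in NTC minus PTC. These shares are near those of all genes (21.5% higher and 12.9% lower). With germ cell scaling 2 of the 12 were called higher and 0 lower, beside 4737 higher and 40 lower of all 16121 genes. In LOVA minus NTC 0 of the 12 were called (6 with an unadjusted p under 0.05), and in LOVA minus PTC 4 rose, beside 19.8% of all genes. Srebf2, which encodes SREBP2, fell without GDNF (-0.97, SE 0.18, adjusted p = 0.0133; 0.03 with germ cell scaling), with 537 and 540 CPM in PTC, 274 and 277 in NTC, then 476 and 364 in LOVA. Like Dhcr7 it was lowest in NTC, but both its LOVA libraries lay below both PTC libraries. In LOVA minus NTC, Mylip, a ligase that marks the LDL receptor for breakdown, was lowest at -0.76 (SE 0.32). Without NTC B the calls of Lbr, Tmem97, Ch25h, Cyb5a, Cyb5r3 and Srebf2 in NTC minus PTC were lost, with adjusted p from 0.0562 (Cyb5a) to 0.153 (Tmem97). Tmem97 and Srebf2 lost theirs also without PTC A, PTC B or NTC A, and Ch25h and Cyb5r3 without PTC A.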

How the data were processed

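RNA was made into strand-specific libraries and sequenced as paired ends, per the labels' protocols. The authors deposited raw counts per Ensembl gene, whole numbers with no normalization. Tools in the submitters' processing notes are Bowtie2, RSEM, Trimmomatic and DESeq2, with no version or role, on mm10. Counts from RSEM would have been rounded before deposit, which the table does not settle. Symbols, positions and exon lengths came from GENCODE M21, which matched 31363 of 31384 genes.

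Genes were kept by filterByExpr (minimum count 10), libraries scaled by TMM, and all 6 libraries fitted with 1 coefficient per group by edgeR 4.0.16 (robust quasi-likelihood F test, 3 residual degrees of freedom, R 4.3.3). Calls need a p under 0.05 after Benjamini-Hochberg adjustment over 16121 genes. Each SE was derived from the log2 fold change and its F statistic. The 95% intervals use this SE and the total degrees of freedom of the fit (residual plus prior). Alternatives used DESeq2 1.42.0, limma-voom (limma 3.58.1), other scalings and filters, and left out libraries. The scripts were tested on simulated data. A floor of 3 counts was 0.128 to 0.258 CPM, for counting error only. Named genes were the 3 members, the 4 nearest profiles of each and, per list, the highest and lowest change in LOVA minus NTC and, in the lists of electron donors, relatives and enzymes that use cholesterol, the 2 most abundant. In the sterol sensing list 1 gene named by this rule is not reported here. Por, Ebpl, Srebf2, Pmvk and Idi1 were named after their values were seen. The members and lists were chosen with earlier results of these data known.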

Additional observations from a re-analysis of the deposited data

How the results depend on the processing

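Each of the 9 results of Ebp, Sc5d and Dhcr7 was recomputed under 13 alternatives. Of these 117 values 94 kept direction and side of the threshold, 8 lost a call, 8 gained one and 7 changed sign; where no sentence gives a cause, the cause was not tested. With 1 library left in a group, that library is assumed to vary like the others.

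With libraries scaled to germ cell markers, Dhcr7 in NTC minus PTC turned to 0.11 and 3 cholesterol synthesis genes were called there; all genes then split into 4737 higher and 40 lower in NTC minus PTC (3472 and 2086 in the TMM fit), and 3935 and 33 in LOVA minus PTC (3192 and 1747). With no filter beyond 1 count, LOVA minus NTC had 191 genes called, 16 of them in the cholesterol list; Sc5d (0.92, adjusted p = 0.0366) and Dhcr7 (1.03, adjusted p = 0.00355) passed there, as did Sc5d in NTC minus PTC (0.86), and Ebp in LOVA minus NTC was at -0.012. DESeq2 called 120 and limma-voom 10 genes in LOVA minus NTC, with 13 and 1 of the cholesterol list, and limma-voom put Ebp at -0.059. With only the 2 groups compared, Sc5d passed in NTC minus PTC (0.89) and 3215 genes were called in LOVA minus PTC.

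With a replicate block by column letter, 90 genes were called in LOVA minus NTC (13 of the cholesterol list), 8053 in NTC minus PTC and 7746 in LOVA minus PTC. In that block Sc5d passed in NTC minus PTC (0.83, adjusted p = 0.00506), and Ebp in LOVA minus NTC was at -0.025. Libraries of the same letter deviated together (correlations of deviations of 0.25, 0.29 and 0.37 between pairs of groups), but the letters match no number of the labels and there are only 2 of them, so they share a letter and are not shown to be pairs.

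Leaving out each library in turn, the genes called ranged from 1 to 6726 in NTC minus PTC, 0 to 2 in LOVA minus NTC and 758 to 6754 in LOVA minus PTC, and those of the cholesterol list from 0 to 11, 0 to 0 and 1 to 12. Log2 fold changes ranged from 2.00 to 2.78 (Ebp), 0.46 to 1.22 (Sc5d) and -0.90 to -0.87 (Dhcr7) in NTC minus PTC, and from -0.42 to 0.35, 0.55 to 1.37 and 0.59 to 1.39 in LOVA minus NTC. For LOVA minus PTC the values ranged from 1.90 to 2.79, 1.43 to 2.13 and -0.30 to 0.50. Ebp turned negative in LOVA minus NTC without NTC A (-0.18) or LOVA B (-0.42), and Dhcr7 in LOVA minus PTC without LOVA A (-0.30). The 38 counts of Ebp in PTC A are the lowest behind any value of the 3 genes.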

Other observations

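Enzymes that act on cholesterol, or on sterols and esters made from it, formed a further list downstream of the 3 genes. They are called enzymes that use cholesterol for short. Of 11 listed, 10 were tested, of which 2 rose and 0 fell in NTC minus PTC (21.5% and 12.9% of all genes). In LOVA minus NTC 0 were called (1 with an unadjusted p under 0.05). In LOVA minus PTC 3 rose and 0 fell (19.8% and 10.8% of all genes). With germ cell scaling 4 of the 10 were called higher and 0 lower in each comparison with PTC. Of all 16121 genes, 4737 were then called higher in NTC minus PTC and 3935 in LOVA minus PTC. Cyp7b1, an oxysterol hydroxylase and the most abundant of the list per length, had 1.63 and 11.7 CPM in PTC, then 123 and 166 in NTC, then 63.3 and 134 in LOVA (NTC minus PTC 4.40, SE 0.88, adjusted p = 0.0170; 0.105 without NTC B and 0.0748 and 0.0800 without LOVA A and LOVA B). All PTC values lay below the others, and in each group the B library, with more fibroblast marker counts, was the higher. Ch25h, described with the relatives of Sc5d, was the other gene that rose there and the second most abundant.

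Lcat, which esterifies cholesterol in plasma, had the highest change of this list in LOVA minus NTC (2.00, SE 0.65, adjusted p = 1) and rose in LOVA minus PTC (3.23, SE 0.70, adjusted p = 0.0222; 0.110, 0.106 and 0.0841 without PTC A, PTC B and LOVA B). It stood at 0.251 and 0.213 CPM in PTC, 0.796 and 0.322 in NTC, and 2.21 and 2.23 in LOVA. Those PTC values, from 4 and 5 counts, and the NTC B value, from 5 counts, are near the floor of 3 counts. With 10 counts in NTC A, the change in LOVA minus NTC also rests on few counts. Soat2, an enzyme that stores cholesterol as ester, had the lowest change in LOVA minus NTC (-0.95, SE 0.64).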
